A study of Mus musculus with 15 samples.

Results

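Dense chains of neighbouring summits in the H3K4me3 landscape of WT amygdala were examined. The list of WT summits, sorted by position on chromosomes 1 to 19 and X, was linked into chains wherever neighbours lay at most 3 kb apart, and every summit of a chain with 3 or more summits was kept. This gave 1541 summits in 470 chains, which is 6.39% of the 24132 summits on these chromosomes. A further 4938 summits formed 2469 pairs and 17653 stood alone. The members were chosen by the positions and the number of summits in this list, so the spacing, the span and the size of the chains are given as a description and were not tested. The chains stand in for broad H3K4me3 domains, and the agreement of that name with the list is taken up first.

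H3K4me3, trimethylation of lysine 4 of histone H3, sits on the nucleosomes around active transcription start sites (TSSs). KMT2A is one of the enzymes that write methylation at this lysine, and KDM5C removes it. At most active genes the mark is a narrow block over the CpG-rich promoter, and at some genes, often those that define a cell's identity, it stretches further into the gene body. CpG islands that carry the mark at low levels next to repressive marks are known from developmental regulator genes.

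The series comprised H3K4me3 ChIP-seq of amygdala nuclei from adult male mice, all of the F1 generation 129xB6, with 2 WT, 3 Kmt2a-HET, 3 Kdm5c-KO and 3 DM (Kmt2a-Kdm5c double mutant) samples and 4 inputs, 1 per genotype. By genotype the WT mice were Kmt2a+/+ and Kdm5c+/y, and the mutants carried Kmt2a+/-, Kdm5c-/y or both. Chromatin of about 20000 nuclei per sample was cut with micrococcal nuclease, which leaves whole nucleosomes, and was recovered with the antibody clone RM340. Only the WT list was analysed here, and it pools the 2 WT mice, so it has no spread between replicates and no genotypes are compared. The amygdala holds neurons and glia together, and in such a mixture fewer cells carrying the mark and less mark per cell cannot be told apart. Genes that define its cell types carried promoter summits, with at least 1 summit at 15 of 16 GABAergic, 16 of 16 glutamatergic, 18 of 20 oligodendrocyte, 17 of 18 astrocyte, 13 of 14 microglia and 15 of 16 endothelial genes, against 3 of 1093 olfactory receptor genes. Over all protein-coding genes the share was 65.2% (14193 of 21755), and it was 96.3% for ribosomal protein genes, so these counts show that the genes were marked and do not set the cell types apart. The score of a summit was read as the −log10 of the MACS2 q-value against input, and the read depth behind it is not given by the list.

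The name of a broad domain was borne out only in part. Each line of the list spans a single base and gives no edges, so the span runs from the first to the last summit and is not the width of a marked block. Each of the 24162 lines had a peak name of its own and 0 names carried the letter that marks sub-peaks of 1 peak, so each summit came from a separately named peak. A wide block called as 1 peak gives 1 summit, whatever its width, and is not a chain by itself. Chain members were also weak, with a median score of 15.6 (quartiles 6.20 and 82.8), beside 52.3 (8.86 and 163.4) for paired and 132.8 (22.2 and 211.4) for lone summits. Scores below 10 were held by 624 members (40.5%), against 27.1% of paired and 14.9% of lone summits. The chains are therefore described below as chains of summits.

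The 3 pairs of sequences that follow show what the summits of a chain rest on, each of 150 bases around a position, read from the plus strand of GRCm38 in the RefSeq assembly, with every CG dinucleotide in capitals. The first pair, from the chain at Hs6st1, holds the strongest summit in coding sequence of the first exon (chr1:36068820-36068969, score 197, 18 CGs) and the weakest, in the first intron (chr1:36071551-36071700, score 2.22, 0 CGs). The second pair, from the chain at Slc17a7, goes the other way, with 2 CGs at the strongest summit, in an intron (chr7:45164443-45164592, score 105), and 4 at the weakest, just upstream of the gene (chr7:45163651-45163800, score 8.28). The third pair comes from the chain with the most summits, which lies in satellite-like repeats on chromosome 9 (chr9:3025480-3025629, score 36.8). It is followed by the stretch 234 bp further on (chr9:3025714-3025863), which is identical at 142 of 150 bases. These loci were picked for display after their values were seen.
Hs6st1 strongest: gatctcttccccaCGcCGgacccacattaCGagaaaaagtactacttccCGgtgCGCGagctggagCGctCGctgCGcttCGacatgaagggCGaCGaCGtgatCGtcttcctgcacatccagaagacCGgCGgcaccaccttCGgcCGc
Hs6st1 weakest: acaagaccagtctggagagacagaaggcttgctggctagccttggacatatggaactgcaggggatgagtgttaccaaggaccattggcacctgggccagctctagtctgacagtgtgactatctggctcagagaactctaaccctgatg
Slc17a7 strongest: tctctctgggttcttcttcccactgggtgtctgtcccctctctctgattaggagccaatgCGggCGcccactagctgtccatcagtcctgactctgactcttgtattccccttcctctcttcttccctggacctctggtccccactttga
Slc17a7 weakest: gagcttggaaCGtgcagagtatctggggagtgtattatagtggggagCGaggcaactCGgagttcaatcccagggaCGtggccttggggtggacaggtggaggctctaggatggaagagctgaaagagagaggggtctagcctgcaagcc
Satellite strongest: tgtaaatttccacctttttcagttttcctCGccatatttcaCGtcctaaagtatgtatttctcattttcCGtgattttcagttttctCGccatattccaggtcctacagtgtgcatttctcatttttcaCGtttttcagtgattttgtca
Satellite 234 bp further: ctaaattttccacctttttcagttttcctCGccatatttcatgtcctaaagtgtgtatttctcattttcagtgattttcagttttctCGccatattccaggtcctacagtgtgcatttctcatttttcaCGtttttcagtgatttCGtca

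Most chains were short. A total of 381 chains (81.1%) held 3 summits, 60 held 4, 20 held 5, 8 held 6 and 1 held 10. The median span was 3000.5 bp (quartiles 2271 and 3872), with a range of 838 to 15392 bp, and 41 chains (8.72%) spanned more than 5 kb. Median spans were 2768 bp for chains of 3 summits, 3997 for 4, 5406.5 for 5 and 6772 for 6. The 1071 gaps between neighbours ran from 298 to 2996 bp with a median of 1249 bp, and 401 of them (37.4%) were at most 1000 bp. Chains occurred on all 20 chromosomes examined, and members made up between 4.07% of the summits on chromosome 17 and 9.29% on chromosome 13.

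**Figure D1:**
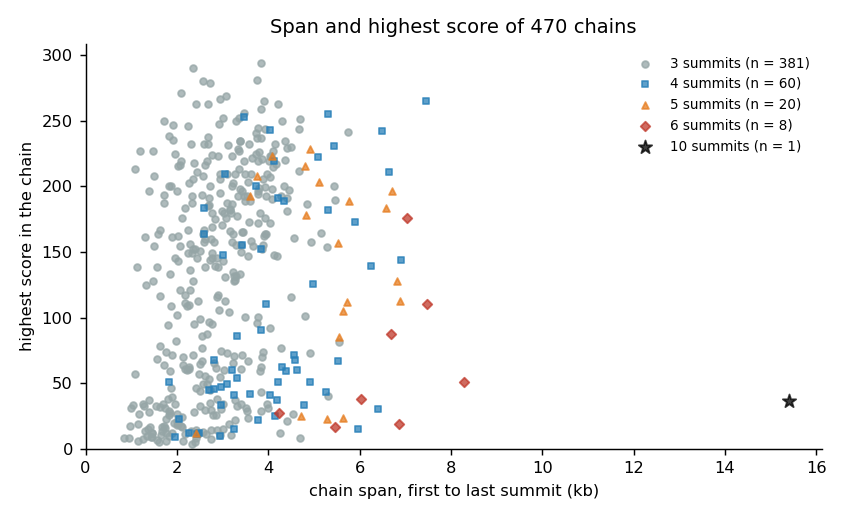
Span of each of the 470 chains (x axis, kb from first to last summit) against the highest score in the chain (y axis, MACS2 score read as −log10 q), by number of summits. The median chain spans 3000.5 bp with a highest score of 138.3, and the lone star at 15392 bp is the chain of 10 summits in satellite-like repeats, with a highest score of 36.8.

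The limit of 3 kb cut through a continuous range of gaps. Just inside it, the widest gaps were 2996 bp at Pou2f2, 2991 bp at Barhl2 and 2990 bp at Pde4dip. Just outside, runs of 3 summits with a gap of 3007 bp at Cnih3, 3011 bp at Chmp2a and Ube2m, and 3013 bp at Ddx24 were left out. The highest scores of the excluded runs were 171, 244 and 267, and those of the included chains were 116, 18.9 and 265.

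Within a chain 1 summit usually dominated. The highest summit of a chain had a median score of 138.3 (quartiles 41.4 and 196.5), the second 19.998 (8.47 and 64.9), the third 6.002 (4.004 and 10.1) and the fourth, in the 89 chains that had one, 5.24. The order itself follows from the ranking, and the size of the steps is what the values describe. The highest score was at least 2 times the second in 295 chains (62.8%) and at least 10 times in 99 (21.1%). Of the 1071 lower summits, 606 (56.6%) scored below 10. In only 92 chains (19.6%) did every summit reach 10, and in 14 (2.98%) every summit reached 50. The dominant summit of the 381 chains of 3 had no fixed place, being first in 134, middle in 120 and last in 127 along the chromosome. Pairs had medians of 147.7 for the higher and 11.1 for the lower summit.

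**Figure D2:**
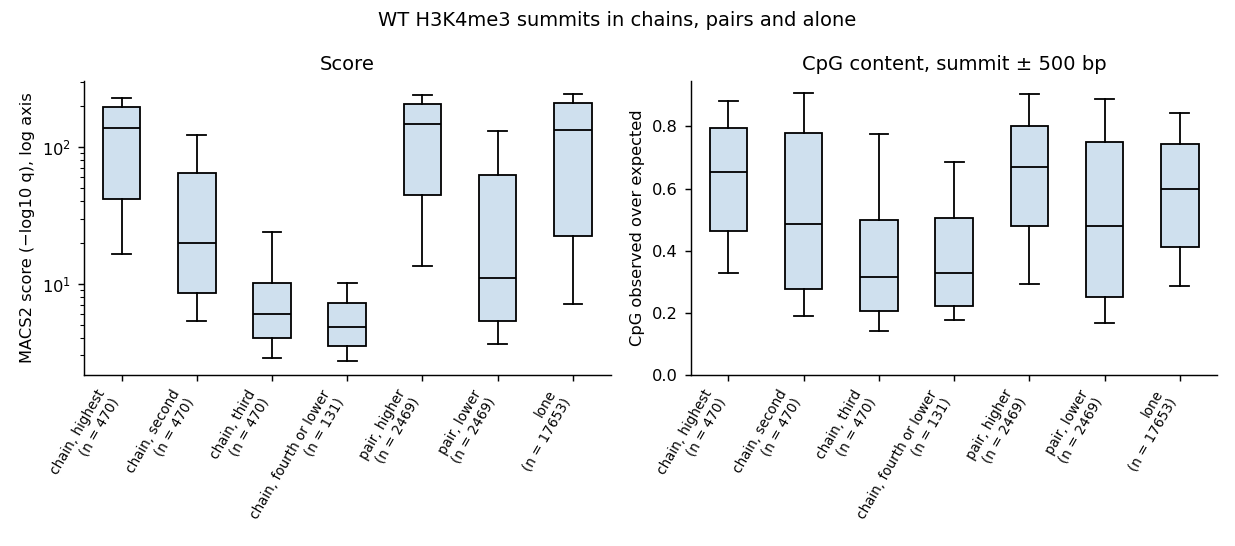
MACS2 score (left, log axis) and observed over expected CpG within 500 bp of the summit (right, no unit) for chain summits by order of score, for pairs and for lone summits. Boxes show quartiles and medians, and whiskers the 10th and 90th percentiles over summits of 1 pooled list. The third summit of a chain has medians of 6.002 and 0.314, the highest 138.3 and 0.653.

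Most of the highest and second summits of a chain lay at promoters, and most of the third did not. A promoter was taken as 1 kb either side of any annotated TSS. Of the highest summits 388 of 470 (82.6%) were at a promoter, of the second 270 (57.4%) and of the third 153 (32.6%), while introns took 53, 133 and 223 of them. The median distance to the nearest TSS grew from 360 bp to 639 bp and 1774 bp. Pairs were close to the highest 2 summits of a chain, so this step is not particular to chains. Promoters held 83.0% of the higher and 57.4% of the lower summits of pairs, at median distances of 339 and 669 bp. Over all members, 850 (55.2%, 95% Wilson interval 52.7 to 57.6) were at promoters, 463 (30.0%, 27.8 to 32.4) in introns, 108 (7.01%) in exons and 120 (7.79%) between genes. Promoters held 70.2% (68.9 to 71.5) of paired and 73.3% (72.6 to 73.9) of lone summits, and introns 18.6% and 10.995%. Seen from the whole list, 13.9% (12.8 to 15.1) of the 3324 intronic summits and 11.7% (9.76 to 13.9) of the 925 exonic ones were chain members, beside 4.93% (4.61 to 5.26) of promoter and 4.57% (3.83 to 5.43) of intergenic summits. These intervals cover counting error only, and members of a chain are neighbours and not independent.

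CpG content, which the rule did not use, fell in the same order. Observed over expected CpG within 500 bp had a median of 0.653 at the highest, 0.485 at the second and 0.314 at the third summit of a chain. GC content went from 59.1% to 54.3% and 49.8%. The higher and lower summits of pairs had CpG ratios of 0.671 and 0.478, near those of the highest 2 summits of a chain. Over all members the CpG ratio was 0.462 (quartiles 0.274 and 0.726), beside 0.604 for paired and 0.600 for lone summits. Members at promoters had a median ratio of 0.655 and a median score of 50.7, and members elsewhere 0.306 and 7.12. For lone summits the corresponding ratios were 0.666 and 0.408, with scores of 180.3 and 14.3. The highest summit of a chain, where it lay at a promoter, had a median CpG ratio of 0.669, beside 0.666 for lone promoter summits, and its median score was 152.2 (quartiles 60.9 and 202.5) beside 180.3 (85.9 and 223.3).

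The surrounding summits were placed relative to the direction of the gene in the 320 chains that lay at the promoter of exactly 1 protein-coding gene and had their highest summit at a promoter. Of the 731 lower summits, 459 (62.8%, 59.2 to 66.2) lay downstream of the highest and 272 upstream. The downstream ones were further away, with a median of 2274 bp (quartiles 1559.5 and 2910.5), were weak, with a median score of 6.31, and lay at a promoter in 25.3% of cases. The upstream ones were nearer, at 1427.5 bp (955.75 and 2360.75), scored 18.3 and lay at a promoter in 73.2%. Lower summits were found only downstream in 144 chains (45.0%), on both sides in 114 (35.6%) and only upstream in 62 (19.4%).

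**Figure D3:**
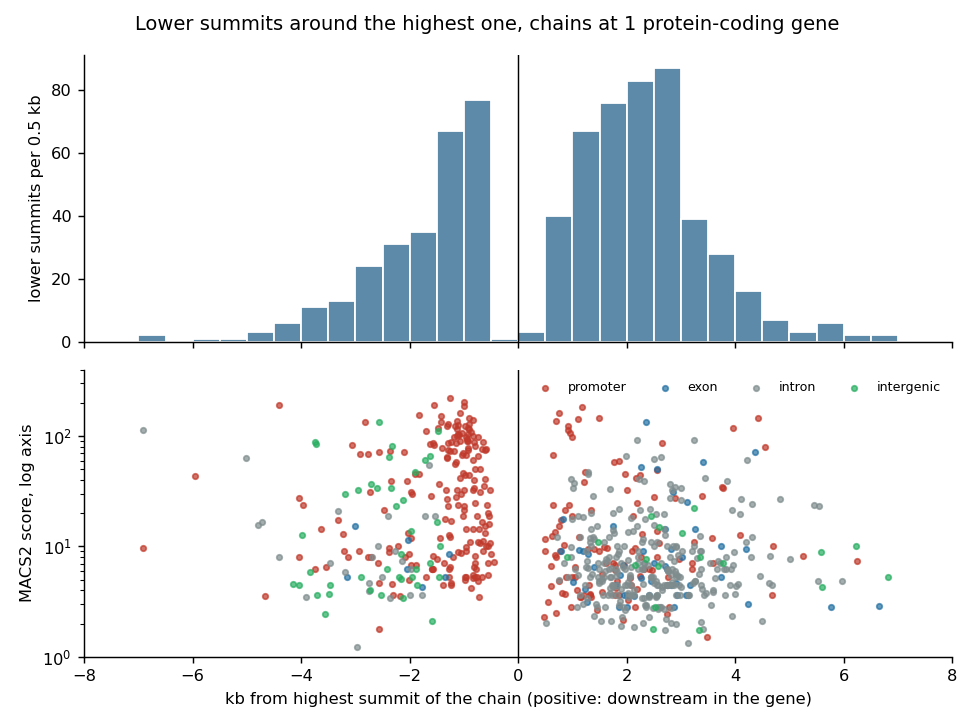
Distance of 731 lower summits from the highest summit of their chain in 320 chains at 1 protein-coding gene (x axis, kb, positive downstream in the gene), as counts per 0.5 kb (top) and with each summit's MACS2 score on a log axis (bottom), coloured by annotation. Downstream summits are mostly intronic with a median score of 6.31, and upstream summits mostly promoter summits with a median of 18.3.

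Chains fell into strong and weak ones by their highest score. The highest score was 150 or more in 215 chains (45.7%, 41.3 to 50.3), from 50 to 150 in 124 (26.4%) and below 50 in 131 (27.9%, 24.0 to 32.1). The weak chains held 442 summits with a median score of 8.59, and in 18 of them every summit was below 10. Median spans were 2451, 2905 and 3393 bp from the weak to the strong class, and promoter summits made up 49.5%, 55.4% and 58.6% of the members. These classes were cut from the same scores that are compared within them, and the scores form a continuous range. The share of chains below 50 moved with the rule, to 41.0% with a gap of 2 kb, 19.0% with 5 kb, 34.8% with 4 summits required and 17.2% with a score minimum of 10.

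The chain with the most summits, 10, lay in satellite-like repeats on chromosome 9 (chr9:3020504-3035896, at the predicted genes Gm10715, Gm10717, Gm10719 and Gm17535). Its scores ran from 4.83 to 36.8, and 96.1% of the bases around its summits were soft-masked as repeats in the reference. Shifted against itself by 234 bp, its sequence was identical at 75.4% of 16393 positions, while the best shift of the Lhx9 region gave 28.1%. A chain of 4 on the same chromosome, at Gm10722 and Gm11168, and 1 of 4 on chromosome 14, at Gm21738, were 93.6% and 84.6% masked. These 3 chains, singled out after their values were seen, lie in sequence that occurs in many copies, where the placement of reads is uncertain. Their genes are not interpreted, but they remain in the gene counts below.

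The 8 chains of 6 summits lay at Lhx9, Id3, Dusp10, Barhl2, Zfhx3, Fezf1, Arhgef17 and Foxd1. At Lhx9, a LIM homeobox gene with several TSSs (chr1:138840131-138848412, 8281 bp), the scores along the chromosome were 28.9, 50.7, 9.19, 16.8, 43.5 and 9.77. Both high points lay within 1 kb of a Lhx9 TSS, and no summit fell below 9. At Foxd1, a forkhead gene (chr13:98354416-98358648), the scores were 27.4, 15.4, 15.4, 7.12, 4.45 and 3.01 from the TSS onward, falling or level at every step, and the last 4 summits lay in exon sequence. At Barhl2, a Bar homeobox gene (chr5:106452047-106458914), the promoter summits scored 18.9 and 12.6, and the other 4 lay between 2.07 and 9.43. Fezf1, a zinc finger regulator of forebrain development (chr6:23247584-23253615), had 34.4 at its promoter, 37.9 at the next summit, outside any promoter, and 2.84 to 9.05 at the other 4.

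Of the remaining chains of 6, Id3 and Dusp10 had 1 summit above 100, and Zfhx3 and Arhgef17 had none. Id3, an inhibitor of basic helix-loop-helix factors (chr4:136140592-136148073), had 3.63, 5.31, 110.3, 2.84, 8.07 and 7.12. Dusp10, a phosphatase that acts on stress-activated kinases (chr1:184034914-184041949), had 176 at its promoter and 5 exonic or intronic summits from 2.46 to 21.1 downstream. The 176 summit also lay within 1 kb of a TSS of 1700056E22Rik, a protein-coding gene on the opposite strand. Zfhx3, a large zinc finger homeobox gene (chr8:108699842-108706519), had 87.6 at the promoter, 47.7 in the intron after it and 3.48 to 11.1 at the other 4. At Arhgef17, a guanine nucleotide exchange factor gene (chr7:100926948-100932404), no summit scored above 16.3. Npas3, a basic helix-loop-helix PAS factor (chr12:53246760-53253646), led the chains of 5 with 33.9, 112.4, 10.1, 32.7 and 79.5, and its highest pair lay at separate Npas3 TSSs.

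**Figure D4:**
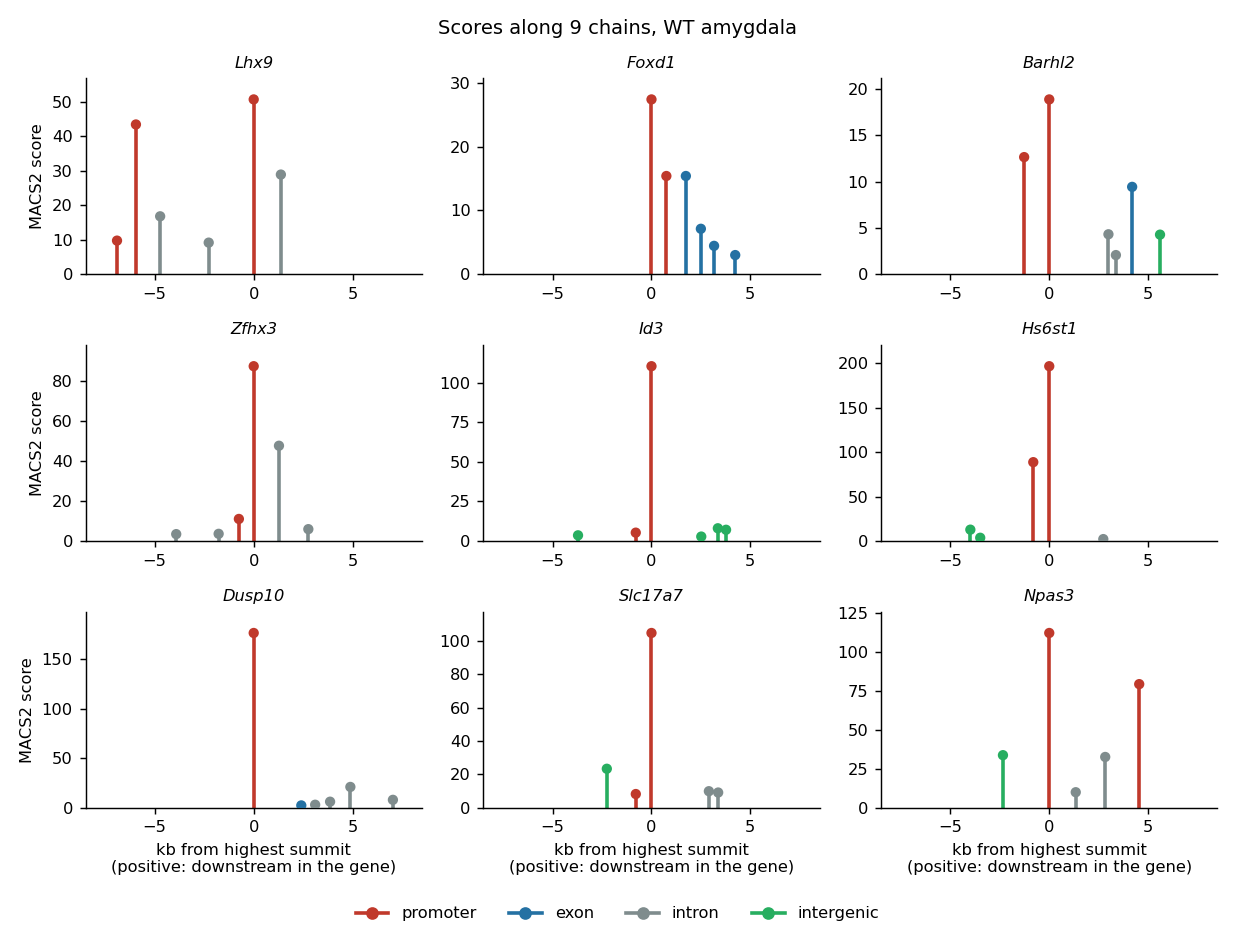
MACS2 scores of the summits in 9 named chains (y axis, scaled by panel) against distance from the highest summit (x axis, kb, positive downstream in the gene), coloured by annotation. Id3, Hs6st1 and Dusp10 show 1 high summit with scores of 110.3, 197 and 176 among low ones, Foxd1 a stepwise fall from 27.4 to 3.01, and Npas3 separate high points of 112.4 and 79.5.

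Of the 5 longest chains outside these, 4 are described here, each with its highest score at a promoter. The chain at Mgat4b and Sqstm1, a glycosyltransferase gene and an autophagy receptor gene (chr11:50208257-50215711, 7454 bp), had 4.96, 265, 26.7 and 32.6. Zic2, a zinc finger gene of brain development (chr14:122478775-122485591), had 128 followed by 15.2, 8.82, 10.1 and 5.31 at 4 intergenic summits. Hs6st1, which encodes a heparan sulfate sulfotransferase (chr1:36064907-36071626), had 12.8, 3.72, 88.7, 197 and 2.22. Speg, a kinase gene with several TSSs (chr1:75382358-75389002), had 211, 87.2, 5.38 and 2.91.

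Of the 5 chains with the highest median score, the 4 described here each paired 2 strong summits with 1 weak one. Fam120a, an RNA-binding protein gene (chr13:48965645-48968591), had 5.31, 266 and 223. Nbea, a neuronal trafficking gene (chr3:56180126-56184000), had 8.07, 221 and 205. At Mapk1ip1 and Ppp2r2d (chr7:138843969-138847058) the scores were 5.42, 209.6 and 205, and at Ccnt2, a cyclin gene (chr1:127773626-127776697), 202, 269 and 4.45. In all 4 the strong summits were neighbours, and the weak one lay in an intron or exon. The weak summit makes these loci chains, since a pair would not have been kept.

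Protein-coding genes were counted where a member summit lay within 1 kb of one of their TSSs. This held for 452 of 21755 genes (2.08%), or 3.18% of the 14193 genes with any promoter summit, and 102 of the 452 lay in chains whose highest score was below 50. Of the chains, 363 (77.2%) were at 1 coding gene and 42 (8.94%, 6.68 to 11.9) at 2 or more. Without the 3 repeat chains there were 445 genes in chains, and 8.57% of chains were at 2 or more. Of the 37 with exactly 2, 30 had their genes on opposite strands, as at Mapk1ip1 and Ppp2r2d. The median length of the genes in chains was 25.02 kb, beside 25.7 kb for other marked genes and 7.85 kb for genes without a promoter summit, and their median number of TSSs was 4, beside 5 and 2.

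Forebrain transcription factors had the highest share of members among the lists of genes examined, counted over all genes of a list. Over genes with a promoter summit, forkhead genes had a higher share, 40.0%. Of the 55 forebrain transcription factors, 15 (27.3%, 17.3 to 40.2) were in a chain, or 32.6% of the 46 with a promoter summit, beside 2.08% and 3.18% over all genes. Among them were Npas3, Zic2, Lhx8, Pou3f3, Nfib, Foxp1, Isl1, Sp9, Tshz2, Ebf1, Satb1, Tshz1, Pou3f1 and Foxp2, and those after Pou3f3 are named beyond the rule for named genes, after their values were seen. In 7 of the 15 the highest score was below 50. Lhx8, a LIM homeobox gene of forebrain cholinergic neurons (chr3:154327751-154333030), had 18.9, 22.8, 4.87, 4.63 and 5.31, all low. Pou3f3, a POU factor of cortical neurons (chr1:42692405-42698297), had 6.52, 140.1, 173 and 135, with 3 high summits.

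Families of developmental transcription factors (LIM, Pax, Irx, Tbx, Ebf and the like, without forkhead genes), a list added after the chains had been seen, had 24 of 196 genes (12.2%, 8.37 to 17.6) in a chain, or 23.8% of the 101 with a promoter summit. This and the shares that follow stand beside 2.08% of all genes and 3.18% of genes with any promoter summit. In 12 of the 24 the highest score was below 50. The list was drawn up with Lhx9, Barhl2 and their like in view, so this count is no independent evidence. The list of families also shares Zic2, Lhx8, Pou3f3, Ebf1 and Pou3f1 with the forebrain list, so these genes are counted in both. Likewise, Id3 is also counted in the astrocyte list and Sox17 in the endothelial list. Forkhead genes, a list added later still, with Foxd1, Foxp1 and Foxp2 already described, had 10 of 44 (22.7%, 12.8 to 37.0) in a chain, or 40.0% of the 25 with a promoter summit, and in 7 of the 10 the highest score was below 50. Among the 10, Foxp1 and Foxp2 are also counted in the forebrain list. All 39 Hox genes were outside the chains (interval 0 to 8.97%, which includes 2.08%), and only 4 of them had any promoter summit.

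**Figure D5:**
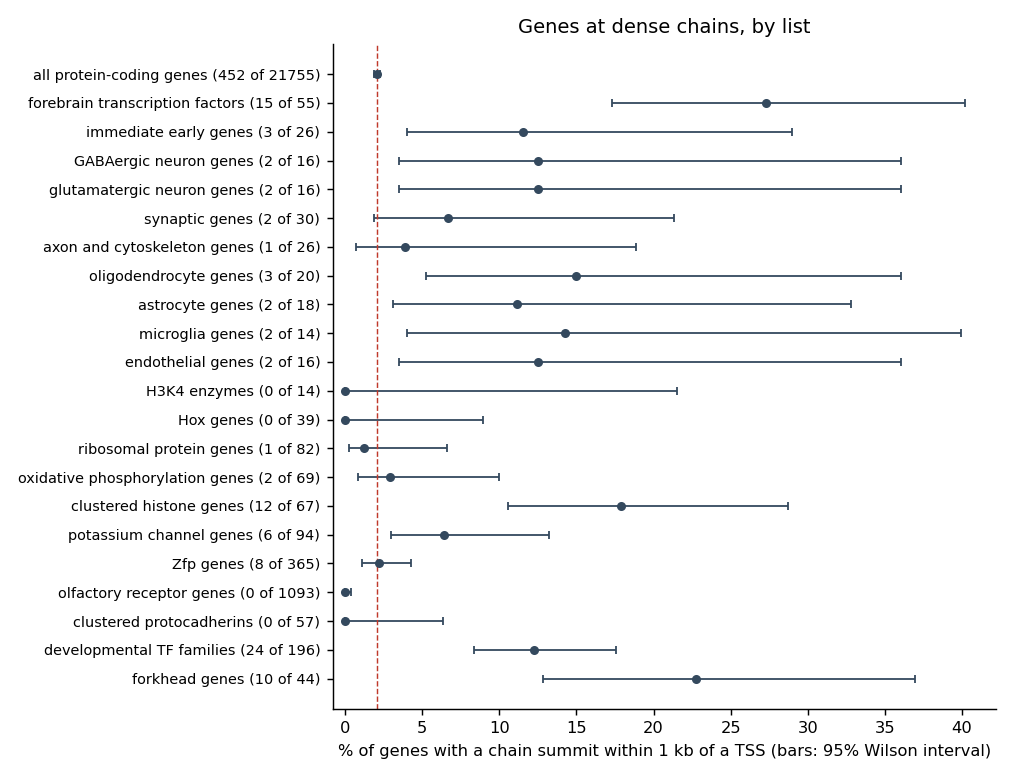
Share of protein-coding genes with a chain summit within 1 kb of a TSS (x axis, percent), by gene list, with 95% Wilson intervals for counting error. The dashed line marks 2.08%, the share over all 21755 genes. Forebrain transcription factors have the highest share, 27.3%, and the developmental families and forkhead genes, at the bottom, were listed after the chains were seen. Both of these lists share member genes with the forebrain list.

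Lists of neuronal and glial genes gave few members each. Their shares stand beside 2.08% of all genes and 3.18% of genes with any promoter summit. Of 16 glutamatergic genes 2 (12.5%, 3.50 to 36.0) were in chains. Slc17a7, the vesicular glutamate transporter of forebrain excitatory neurons (chr7:45162261-45167888), had 23.4, 8.28, 105, 9.97 and 9.18, and Baiap2, a postsynaptic scaffold gene, had 190.4, 234 and 5.54. Of 16 GABAergic genes 2 were in chains. Slc32a1, the vesicular GABA transporter (chr2:158607111-158610433), had 20.7 and 3.43 at upstream summits, in an intron of a gene on the opposite strand, and 177 at its promoter, and Reln had 1.80, 5.31, 71.1 and 55.8. Among 26 immediate early genes, which respond quickly to neuronal activity, 3 (11.5%, 4.003 to 29.0) were members. These were Ier2 (3.47, 159 and 187), Npas4 (8.03, 5.50 and 249.5) and Junb (195, 65.2 and 32.4). In the Ier2 chain, 159 was at the Ier2 promoter, and 187 at a promoter of no protein-coding gene. Synaptic genes had 2 of 30 in a chain (6.67%, 1.85 to 21.3). The genes of axons and the cytoskeleton had 1 of 26 (3.85%, 0.682 to 18.9), Tubb2b (31.3, 243, 8.61 and 14.3). Both intervals include 2.08% and 3.18%.

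Oligodendrocyte genes had 3 of 20 in chains (15.0%, 5.24 to 36.0), beside 2.08% of all and 3.18% of marked genes. Mag, a myelin glycoprotein, had 94.8, 3.65 and 69.2, and Opalin had 6.20, 19.8 and 59.5. In the Mag chain, 94.8 was at the Mag promoter, and 3.65 and 69.2 at promoters of no protein-coding gene. At Mag the summits stood in CpG-poor sequence, with a median CpG ratio of 0.158 over the chain, beside 0.462 over all members. Astrocyte genes had 2 of 18, Id3 and Gfap, the astrocyte filament gene, with 7.09, 4.56 and 29.2. Endothelial genes had 2 of 16, Cldn5 (17.1, 33.8 and 6.80) and Sox17 (32.7, 6.20 and 17.2), and microglia genes 2 of 14. All 4 chains at endothelial and microglia genes stayed below 50, and the median promoter score of the marked genes of these lists was 27.5 and 11.6, beside 172.5 over all genes.

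Housekeeping lists were near the share of all genes. Ribosomal protein genes had 1 of 82 (1.22%, 0.216 to 6.59), Rpl10, and genes of oxidative phosphorylation 2 of 69 (2.90%, 0.799 to 9.97), among them Atp5g2. Their promoters were strongly marked all the same, with median scores of 219 and 232. Zfp genes had 8 of 365 (2.19%). Potassium channel genes, not a housekeeping list, had a higher share, 6 of 94 (6.38%, 2.96 to 13.2), beside 2.08% of all genes. Of those with a promoter summit, 8.22% were members, beside 3.18%. Among the 6 were Kcnv1 (2.096, 27.4 and 230), Kcnc2 (199, 5.97 and 3.63) and Kcnmb4 (2.03, 219 and 99.0). None of 14 H3K4 methyltransferase and demethylase genes found in the annotation (interval 0 to 21.5%) was a member. The same held for 57 clustered protocadherins (0 to 6.31%) and 1093 olfactory receptors (0 to 0.350%). The intervals of the H3K4 and protocadherin lists include 2.08%, so their counts of 0 do not set them apart from all genes. All 57 protocadherins had a promoter summit, and only 3 of the olfactory receptors did.

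Clustered histone genes were members in another way. Of 67, 12 (17.9%, 10.6 to 28.7) were in chains, beside 2.08% of all genes. But these 12 lay in 4 chains on chromosome 13, where several short genes share a few kb. The chain at Hist1h2ad, Hist1h2ae, Hist1h2bf, Hist1h2bg and Hist1h3d (chr13:23571826-23576134) had 62.5, 6.20, 9.05 and 35.2, and all 4 summits were promoter summits. These genes stand side by side, and copies within a histone family are near-identical in their coding parts, so the 12 are 4 observations at most.

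In 40 chains, 124 summits in all, there was no summit at an annotated promoter. Of these, 26 lay in a protein-coding gene and 11 were more than 20 kb from any coding TSS. Their highest scores had a median of 34.2 and their CpG ratio 0.373, and 6 of the 40 reached 150. The largest lay in the noncoding gene Gm27199 (chr5:120424355-120427607, 5.67, 6.20, 15.4 and 6.29), in Lmo3 (chr6:138413605-138416557, 4.45, 2.84, 9.55 and 7.96), at the end of Foxc1 (chr13:31810813-31813635, 45.7, 21.6, 1.80 and 4.11) and in Myo1d (chr11:80482690-80484653, 3.83, 7.15, 5.59 and 8.81). No summit of these 4 chains reached 50. The fifth, between genes near Dhx37 (chr5:125404010-125409289), was strong at all 3 summits, with 99.0, 154 and 52.1, at 6608 to 11887 bp from the nearest annotated TSS.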

How the data were processed

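H3K4me3 ChIP-seq was performed on amygdala of 11 adult male mice of 4 genotypes, with 4 inputs. In the authors' pipeline, unique Bowtie alignments to mm10 went into peak calling against input with MACS2 2.1.0.20140616 at a q-value below 0.1. The score the authors deposited for each WT summit is taken as the −log10 of the q-value, a reading made from the range of the values (lowest 1.18), since the list does not name it. The Methods name a removal of black-list regions, and whether it was applied to this list is not stated there. Of the columns holding per-sample values, 0 remained without a sample.

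Summits were chained, assigned with GENCODE M21 to promoter, exon, intron or intergenic sequence in that order, and their CpG ratio read from the RefSeq GRCm38 genome. Shares carry 95% Wilson intervals. No test was run, since 1 pooled list has no replicates and the members were chosen from it. The chaining and counting code was tested on simulated positions. Named loci are the 10 chains with the most summits, the 5 longest others, the 5 with the highest median score, the 5 largest without a promoter summit, the 3 on each side of the gap limit, and up to 4 genes per list. Some of these loci, and single microglia genes, are not reported here. The members and lists were chosen with earlier results of these data known. Python 3.11.15, numpy 2.4.6, pandas 2.3.3, scipy 1.17.1, pysam 0.24.0, samtools 1.23.1 and matplotlib 3.10.9 were used.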

Additional observations from a re-analysis of the deposited data

How the results depend on the processing

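The number and the make-up of the chains depended on the rule that defines them. With a gap of 2 kb there were 939 summits in 293 chains (median span 2319 bp, median score 12.2, 259 genes, 6.48% of chains at 2 or more genes), and with 5 kb 2538 in 753 (4353 bp, 23.9, 853 genes, 18.5%, promoter share 58.1%, CpG ratio 0.507). Requiring 4 summits left 398 in 89 chains (4378 bp, 11.1, 94 genes, promoter share 48.0%). Keeping only summits with a score of at least 10 left 359 in 116 chains (score 44.9, 117 genes, 13.8%, promoter share 65.2%, CpG ratio 0.648). A promoter window of 500 bp gave a share of 40.9% at promoters and one of 3 kb gave 84.6%, protein-coding TSSs alone 50.2% and RefSeq TSSs in addition 59.8%, and the CpG ratio was 0.487 within 250 bp. Of 59 alternative values of the main results, 27 stayed within 1.5 times the count or inside the interval of the main value, and 32 did not. Under the score minimum of 10, forebrain transcription factors had 5 of 55 members (9.09%) and all genes 0.538%, and the developmental families 6 of 196 (3.06%). With 4 summits required the forebrain count was 7 (12.7%) against 0.432% of all genes. Of chains without a promoter summit there were 40, and 32 with RefSeq TSSs, 8 with the score minimum of 10 and 4 with 4 summits required. The RefSeq TSSs, the fit without the 3 repeat chains (467 chains, 1523 summits) and the alternatives for gene lists were chosen after seeing the data. No paired analysis was possible because the list pools both WT mice, and for the same reason leaving out a replicate was not run. The list gives no read depth, so how far the weak summits depend on depth was not tested.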

Other observations

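Outside chromosomes 1 to 19 and X the list held 30 summits, and 0 of them were in a run of 3 or more at the same spacing. They included 7 on chromosome Y, 4 on the mitochondrial sequence and the rest on unplaced sequences.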
